A study of Mus musculus with 16 samples.

Results

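The stefin A genes of the mouse encode small inhibitors of cysteine peptidases, and 6 copies were measured here in cortical bone: Stfa2l1, Gm5483, Stfa1, Stfa3, Stfa2 and BC100530. A pair of relatives was taken with them, Cstb (stefin B) and Cst3 (cystatin C), so that 8 of the 36829 features listed for each mouse are described. The copies were taken by family after Stfa1 and Stfa2 had been singled out for their difference between hindlimb unloading and normal weightbearing, so that difference chose them. It is therefore given for the 6 copies as a description, with no test. The files name each gene by its symbol alone.

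Stefins are cytosolic proteins that lodge reversibly in the active site of papain-like peptidases, most of which are lysosomal cathepsins. Cystatin C has the same fold but is secreted and acts outside the cell. Neutrophils and epidermis are known as rich sources of stefin A, while osteoclasts resorb bone with cathepsin K, an enzyme of the class that stefins and cystatins inhibit.

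The samples came from 16 female C57Bl/6 mice (C57Bl/6J in the methods of the paper) of 11 weeks. In the HLU group, 8 mice had their hindlimbs unloaded for 7 days in a tail harness, and in the Control group 8 mice bore weight normally. Femoral cortical bone was flushed of marrow and its total RNA was sequenced, 1 library per mouse. The labels name no transgene, Cre line or drug in either group. Libraries were sequenced 8 to a lane, and since the lane of each mouse is not given in the sources used here, lane and group cannot be told apart.

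Values are RPKM, numbers of reads scaled by the length of the gene in kilobases and by the size of the library. The number of reads by which each library was scaled ran from 7067512 (Control 2) to 19708590 (Control 1) in the Control group. In the HLU group it ran from 7838277 (HLU 5) to 21363584 (HLU 6). The RPKM values gave back whole numbers of reads for 16973 of the 16973 features that averaged 0.5 RPKM or more, so read numbers are given beside the levels (whole within 0.01 of a read). The gene lengths this takes were found from the values themselves, and they equal the GENCODE M21 exon length for 7381 of 24755 features.

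The 6 copies lie together on chromosome 16, over 299 kb from 36156811 to 36455392 (GRCm38, GENCODE M21). Stfa2l1, Gm5483 and Stfa1 are on the plus strand, and BC100530, Stfa2 and Stfa3 are on the minus strand. Stfa2l1 spans 36156811 to 36161953, Gm5483 spans 36184212 to 36188111 and Stfa1 spans 36276951 to 36285373. BC100530 spans 36359382 to 36367748, Stfa2 spans 36403992 to 36408457 and Stfa3 spans 36450537 to 36455392. Each copy has 3 exons in its first annotated transcript, and Cstb on chromosome 10 and Cst3 on chromosome 2 also have 3. A small nuclear RNA gene lies on the opposite strand within 200 bases past the 3′ end of 5 of the 6 copies, Stfa3 being the exception. An antisense gene, Gm15845, overlaps BC100530 by 679 bases, and since the strand used for counting is not given in the sources used here, reads of the pair cannot be told apart.

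The coding sequences of the copies are alike enough that reads can be shared. Over the 15 pairs of copies, identity of the aligned coding bases ran from 77.7% to 97.9% with a median of 81.6%. The closest pairs were Stfa1 with BC100530 at 97.9% and Stfa2 with Stfa2l1 at 96.4%. The following stretch of 90 coding bases is shown for each copy because it separates these pairs: capitals mark bases that differ from Stfa2l1 (coding bases 31 to 120 there), and all 6 are read from the GENCODE M21 transcripts.
Stfa2l1: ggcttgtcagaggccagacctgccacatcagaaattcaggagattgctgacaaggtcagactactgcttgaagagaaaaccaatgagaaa
Stfa2: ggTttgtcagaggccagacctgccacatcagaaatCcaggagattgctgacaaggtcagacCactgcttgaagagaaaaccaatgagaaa
Stfa3: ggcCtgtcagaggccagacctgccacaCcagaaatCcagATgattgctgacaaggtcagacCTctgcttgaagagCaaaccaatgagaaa
Gm5483: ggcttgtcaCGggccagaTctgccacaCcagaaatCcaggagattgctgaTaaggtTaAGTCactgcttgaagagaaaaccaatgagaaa
BC100530: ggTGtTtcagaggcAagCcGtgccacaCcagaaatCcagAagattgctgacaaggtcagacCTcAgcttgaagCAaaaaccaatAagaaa
Stfa1: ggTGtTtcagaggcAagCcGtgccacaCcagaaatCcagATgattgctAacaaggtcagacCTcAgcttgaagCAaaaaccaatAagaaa

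In this stretch Stfa2 differed from Stfa2l1 at 3 of 90 bases and Stfa1 differed from BC100530 at 2. Every other pair of copies differed at 7 to 22 bases. Windows of 50 transcript bases found word for word in another gene made up 25.4% of Stfa1, 15.9% of Stfa2 and 24.6% of Stfa2l1. The same share was 33.5% for BC100530 and 35.6% for Gm5483, whose windows recur in 2010005H15Rik, a neighbour that the files do not list under that symbol. No window of Stfa3, Cstb or Cst3 recurred in another gene. How the counting treated reads that fit several copies is not given in the sources used here, so the split between close copies is uncertain, and sums over the close pairs are given below as well.

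The RefSeq promoter table (GRCm38.p6) held 7 of the 8 members, Cstb being the missing entry. Gm5483 was matched there through its synonym Cstdc4 and BC100530 through the accession of Cstdc5. The stretches just upstream of the start are shown because the copies' levels moved together across mice, and capitals mark the 3 longest runs of bases found in the 250 upstream bases of all 6 copies. These runs are ACCTTTAAAACC, AGAGGAGGAG and CACACTCATT, they do not overlap, and they were picked from these promoters themselves. The coordinates are chr16:36156701-36156810 for Stfa2l1 and chr16:36184102-36184211 for Gm5483 on the plus strand, and chr16:36455393-36455502 for Stfa3 on the minus strand. Shorter stretches are chr16:36277106-36277135 (plus strand) for Stfa1, chr16:36408375-36408404 (minus strand) for Stfa2 and chr16:36367571-36367600 (minus strand) for BC100530, since GENCODE starts these genes further upstream than RefSeq does.
Stfa2l1: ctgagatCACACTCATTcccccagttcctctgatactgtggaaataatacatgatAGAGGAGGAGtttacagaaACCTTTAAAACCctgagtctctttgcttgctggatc
Gm5483: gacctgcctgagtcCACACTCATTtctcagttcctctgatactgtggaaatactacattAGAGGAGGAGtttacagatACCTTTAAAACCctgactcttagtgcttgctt
Stfa3: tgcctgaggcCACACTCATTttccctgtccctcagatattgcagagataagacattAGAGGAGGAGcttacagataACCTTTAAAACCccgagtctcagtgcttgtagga
Stfa1: ctttcggatACCTTTAAAACCctgagtctc
Stfa2: cttacagaaACCTTTAAAACCctgagtctc
BC100530: GAGGAGGAGtttacagatACCTTTAAAACC

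Searched on both strands of the 250 upstream bases, ACCTTTAAAACC was found in 9 of 27025 promoters, or 0.0333%. Of these 9, 8 were on chromosome 16 (the 6 copies, Csta3 and Gm7260), and Gm39539 was on chromosome X. The run AGAGGAGGAG was found in 210 promoters (0.777%) and CACACTCATT in 23 (0.0851%). In the stretch printed for BC100530 the first base of AGAGGAGGAG falls outside the window. Such a match describes the letters only, and no factor's binding was measured.

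Stfa2l1 was the most abundant copy, with a mean of 32.9 RPKM over the 16 mice. Gm5483 followed at 19.5 RPKM, Stfa1 at 5.56, Stfa3 at 2.38, Stfa2 at 1.54 and BC100530 at 0.667. The relatives were higher, Cst3 at 226.8 RPKM and Cstb at 62.5. RPKM is a level per length of gene, so this order rests on the lengths used in the files. The length for Stfa1 was shorter than its first annotated transcript (514 bases). Those for BC100530, Stfa2 and Cst3 were longer than theirs (619, 471 and 860 bases). In Control 1, for example, 19 reads of BC100530 gave 0.635 RPKM and 14 of Stfa3 (412 bases) gave 1.72 RPKM. With transcript lengths BC100530, Stfa2 and Cst3 would be higher and Stfa1 lower, so the order of Stfa3, Stfa2 and BC100530 is uncertain. As listed, the order of neighbours held in most mice. Cst3 was above Cstb in 16 of 16 mice, Cstb above Stfa2l1 in 14 and Stfa2l1 above Gm5483 in 15. Gm5483 was above Stfa1 in 16, Stfa1 above Stfa3 in 15 and Stfa2 above BC100530 in 14. The order of Stfa3 and Stfa2 was the least steady, with Stfa3 higher in 12 of 16 mice.

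In the Control group Stfa2l1 and Gm5483 supplied most of the summed stefin A RPKM, with median shares of 51.0% and 34.7%. In the HLU group these median shares were 49.3% and 30.1%. Stfa1 supplied a median of 8.28% in Control and 9.98% in HLU mice. Stfa3, Stfa2 and BC100530 were minor sources, with median shares of 2.74%, 1.61% and 0.747% in Control and 4.13%, 2.48% and 1.19% in HLU mice. With the lengths of their first annotated transcripts, the shares of Stfa2 and BC100530 would be larger and that of Stfa1 smaller. Every copy's share overlapped between the groups.

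**Figure D1:**
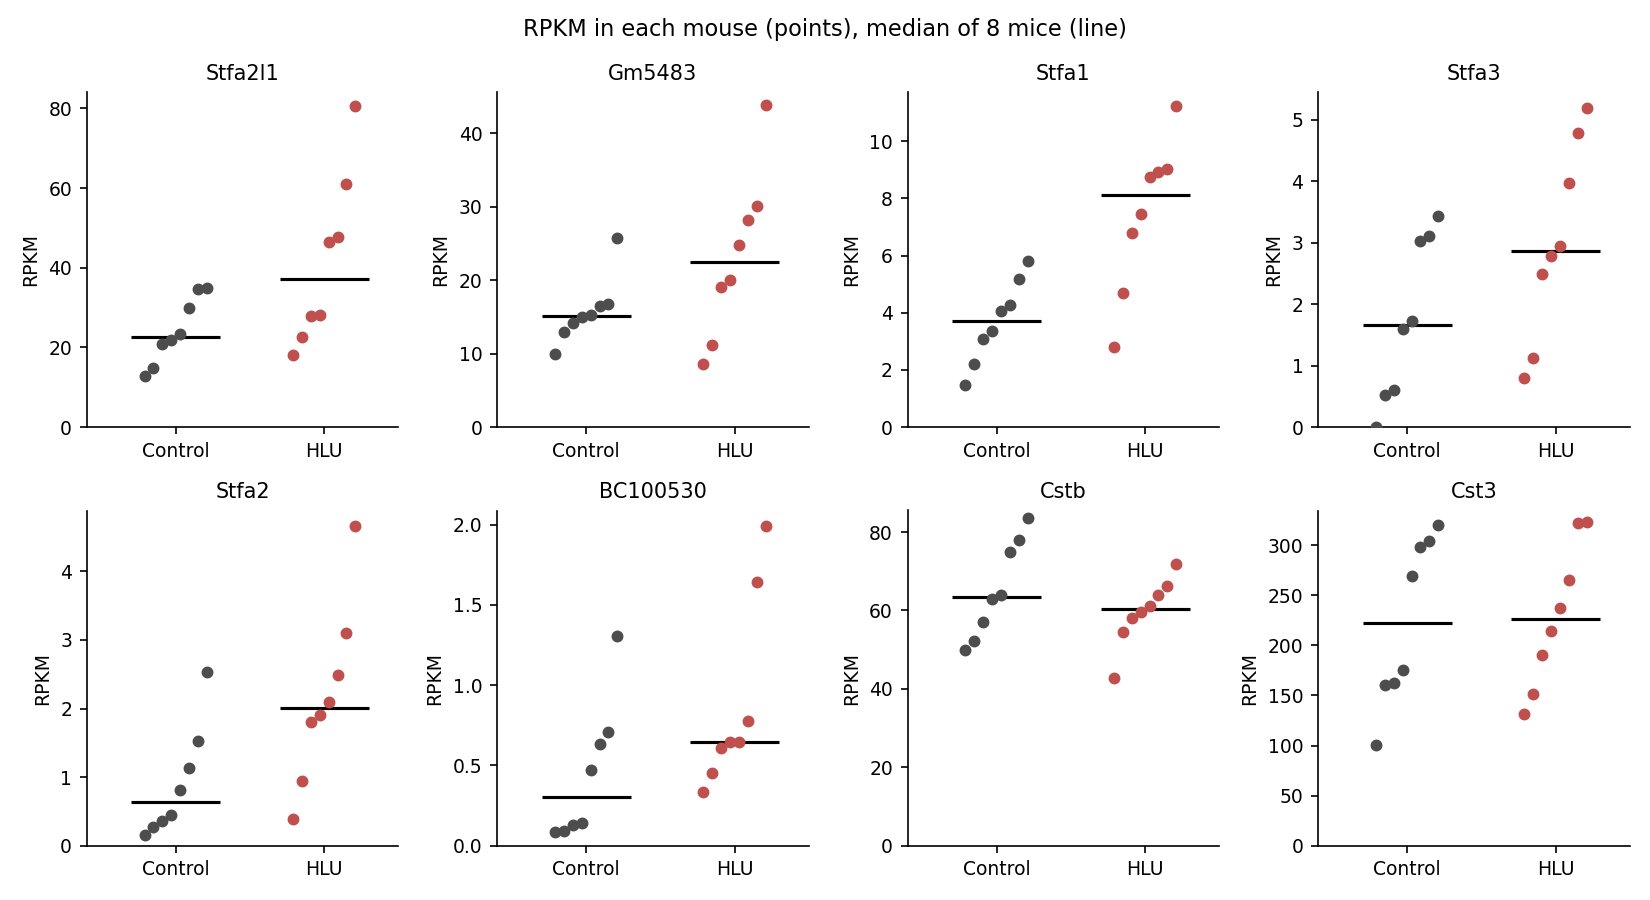
RPKM of each member in each of the 16 mice (points, 8 Control and 8 HLU, sorted by value within a group), with the group median as a line and each panel on its own scale from 0. The HLU medians of the 6 copies lie above the Control medians, from 0.646 against 0.306 RPKM for BC100530 to 37.2 against 22.7 RPKM for Stfa2l1, and the points of the groups overlap in all 8 panels.

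All 6 copies were higher on average in HLU than in Control mice, by at least 1.2-fold, and for each copy the values of the groups overlapped. The summed stefin A level ran from 28.3 to 64.7 RPKM in Control mice (median 44.7) and from 37.9 to 126.9 RPKM in HLU mice (median 76.8). Of the 8 HLU mice, 4 were above the highest Control mouse and 6 were above the Control median. The difference of the sum was 0.68 ± 0.29 on the log2 scale (SE, n = 8 and 8), which is 1.60-fold. Bulk RNA cannot separate a change in the number of cells that hold a transcript from a change in its amount per cell.

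Stfa2l1 ran from 12.9 to 34.9 RPKM in Control mice, median 22.7, and from 18.1 to 80.7 RPKM in HLU mice, median 37.2. The highest HLU mouse was HLU 2, and 4 HLU mice exceeded the highest Control mouse. Its log2 difference was 0.69 ± 0.30. Gm5483 ran from 9.95 to 25.7 RPKM in Control mice, median 15.2, and from 8.56 to 43.8 RPKM in HLU mice, median 22.4. HLU 1 lay below every Control mouse, while 3 HLU mice lay above every Control mouse. Its log2 difference, 0.44 ± 0.28, was the smallest of the 6 copies in these values, and it was 0.28 without HLU 8 and 0.62 without HLU 1.

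Stfa1 had the most HLU mice above the Control range among the 6 copies. It ran from 1.48 to 5.80 RPKM in Control mice, median 3.71, and from 2.81 to 11.2 RPKM in HLU mice, median 8.10. In 6 of 8 HLU mice it was above the highest Control mouse, and HLU 1 was the lowest of its group. Its log2 difference was 1.01 ± 0.30. Summed with its near twin BC100530, the difference was 1.04 ± 0.32.

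Stfa2, Stfa3 and BC100530 were near the limit of what these libraries could measure. Stfa2 ran from 0.159 to 2.53 RPKM in Control mice, median 0.636, and from 0.393 to 4.66 RPKM in HLU mice, median 2.01. These levels rest on 2 to 20 reads per Control mouse and 6 to 60 reads per HLU mouse. Stfa2 was above the highest Control mouse in 2 HLU mice, and its log2 difference was 1.31 ± 0.50, or 0.72 when 1 RPKM in place of 0.1 was added before taking logs. Summed with Stfa2l1 the difference was 0.72 ± 0.32.

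Stfa3 ran from 0 to 3.43 RPKM in Control mice, median 1.66, and from 0.795 to 5.20 RPKM in HLU mice, median 2.87. The value of 0 belongs to Control 3, and 0 reads at that library's depth allow up to 0.517 RPKM (3 reads, counting error only). Its log2 difference of 1.14 ± 0.64 rests partly on that mouse, being 0.62 without Control 3, and on what was added before taking logs, being 0.60 with 1 RPKM and 1.58 with 0.01 RPKM in place of 0.1. BC100530 ran from 0.0822 to 1.30 RPKM in Control mice, median 0.306, and from 0.336 to 1.99 RPKM in HLU mice, median 0.646. All 8 HLU mice were above the Control median, and its log2 difference was 1.05 ± 0.47, or 0.38 with 1 RPKM added. The Control mean of BC100530 was 0.445 RPKM, under the minimum of 0.5, so it passed that minimum through the HLU group.

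Control 2, the library of lowest depth, was the highest Control mouse for Stfa1, Stfa2, Stfa2l1, Stfa3 and BC100530. Across the 16 mice, with each group centred on its mean, the summed stefin A level and the log2 depth had a Pearson r of −0.23 (Spearman rho −0.35), and the part of depth in the levels was not tested.

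Over all features, the fit was limma on log2(RPKM + 0.1), and a feature was called at an unadjusted p under 0.05 with a change of at least 1.2-fold. By that rule 188 of 16973 features (1.11%) were higher and 808 (4.76%) were lower in HLU mice. Of the 6 copies 4 met the rule for higher, which is the contrast that led to Stfa1 and Stfa2 and supports nothing further. At a limma adjusted p under 0.1 no feature was called (0, or 0%), and limma-voom on the recovered reads also called 0, with 183 higher and 915 lower at the unadjusted rule. The median log2 difference of all features was −0.10, so the copies' differences stand above a slightly negative centre. Under median-of-ratios rescaling that median was −0.018, with 376 features called higher and 401 lower, and under quantile normalization it was 0.0010, with 460 higher and 364 lower. The share of calls that were higher thus went from 18.9% to 48.4% and 55.8%, while the 6 copies stayed higher in HLU mice under both rescalings. The counts also depended on single mice, being 363 higher and 1385 lower without HLU 2 and 117 higher and 471 lower without HLU 7.

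**Figure D2:**
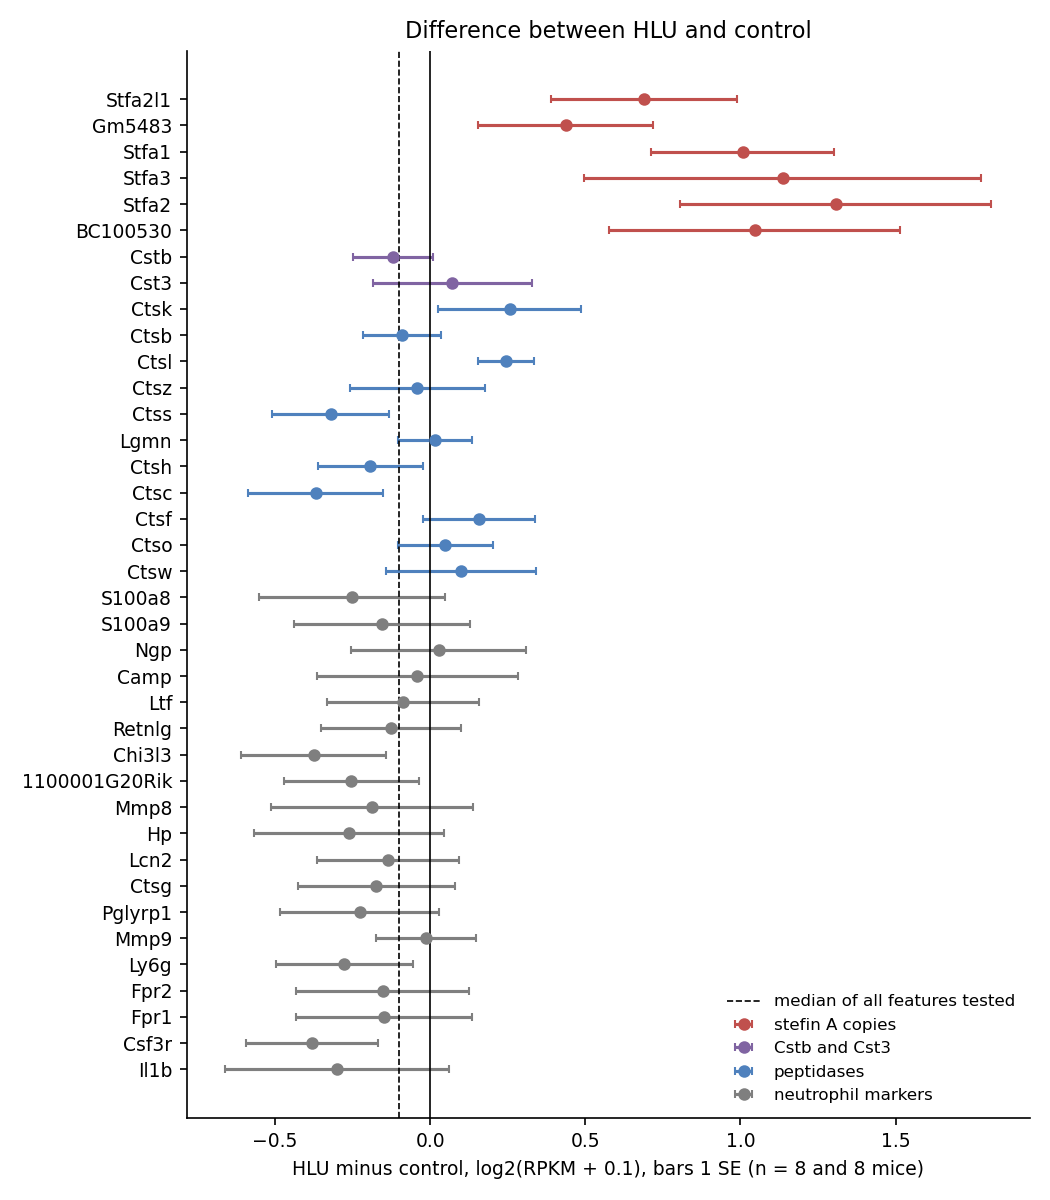
Difference between HLU and Control in log2(RPKM + 0.1) for the 6 stefin A copies, Cstb and Cst3, 11 peptidases and 19 neutrophil markers, with bars of 1 SE (n = 8 and 8 mice) and the median of all features tested, −0.10, as a dashed line. The copies lie between 0.44 and 1.31, and 18 of the 19 neutrophil markers lie below 0, as do 11523 of the 16973 features tested.

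Cstb, the stefin of most tissues, was not called in either direction. It ran from 49.8 to 83.5 RPKM in Control mice, median 63.4, and from 42.8 to 71.8 RPKM in HLU mice, median 60.4. No HLU mouse was above the highest Control mouse, and 3 of 8 were above the Control median. The log2 difference was −0.12 ± 0.12 (95% interval −0.39 to 0.15), with a limma adjusted p of 0.811 and a two-sided exact permutation p of 0.354 over 12870 divisions of the mice. It was 0.017 under quantile normalization, so its direction is not set.

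Cst3, the secreted inhibitor, ran from 101.0 to 320.7 RPKM in Control mice, median 222.2, and from 131.4 to 323.5 RPKM in HLU mice, median 226.1. The groups covered nearly the same range. The log2 difference was 0.072 ± 0.27 (95% interval −0.51 to 0.65), with a limma adjusted p of 0.946 and a two-sided exact permutation p of 0.792. The sign turned without Control 1 (−0.078), HLU 6 (−0.0073) or HLU 7 (−0.0080), and the difference was 0.16 and 0.25 under median-of-ratios and quantile scaling. The interval of Cst3 holds differences as large as the 0.44 of Gm5483, so a change of that size is not excluded for Cst3. Per 100 RPKM of Cstb, the summed stefin A level had medians of 69.7 (Control) and 116.0 RPKM (HLU), and the groups overlapped.

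Of a list of C1 cysteine peptidases with legumain, 11 genes, 5 had a mean over 50 RPKM. By limma at the unadjusted rule none of the 11 was called, beside 1.11% of all features higher and 4.76% lower. Their median log2 difference was 0.016, beside −0.10 for all features. Of the 11, 6 were positive and 5 negative, while 11523 of all 16973 features were negative. The median was 0.10 under median-of-ratios and 0.15 under quantile scaling, and ran from −0.038 without Control 3 to 0.075 without HLU 4, so its sign is not set. Ctsk, the collagen-degrading cathepsin of osteoclasts, had the highest mean at 745.7 RPKM and a log2 difference of 0.26 ± 0.23. Ctsb had a mean of 213.3 RPKM and a difference of −0.090 ± 0.13. Both are lysosomal enzymes far above the summed stefin A level.

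Ctsl, a broad lysosomal cathepsin, had a mean of 104.9 RPKM and ran from 78.5 to 107.2 RPKM in Control mice and from 101.2 to 131.9 RPKM in HLU mice. Its log2 difference was 0.25 ± 0.09, short of 1.2-fold, with a limma adjusted p of 0.744. It passed 1.2-fold under median-of-ratios rescaling (0.33), under quantile normalization (0.38), and without Control 8, HLU 2 or HLU 4 (each 0.27). Ctsz and Ctss, cathepsins of phagocytes, had means of 83.9 and 82.0 RPKM. Their log2 differences were −0.042 ± 0.22 for Ctsz and −0.32 ± 0.19 for Ctss.

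Of 14 further cystatin family genes, 3 averaged 0.5 RPKM or more: Cst7, an intracellular cystatin of blood cells, at 34.8 RPKM, close to the level of Stfa2l1, and the kininogens Kng2 and Kng1 at 3.92 and 3.56 RPKM. None of the 3 was called, beside 1.11% of all features higher and 4.76% lower, and their median log2 difference was −0.24. Cst8, Cst10, Cst11 and Cst12 were listed at 0 in all 16 mice. Of the other genes of the stefin A locus, BC117090, Gm4758 and Csta were listed with means of 0.129, 0.0366 and 0.00336 RPKM, under the minimum. Gm5416, 2010005H15Rik, Csta2 and Csta3 were not listed under those symbols.

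The libraries held much neutrophil RNA although the marrow had been flushed out. Of 26 neutrophil markers 19 were listed, and the most abundant were S100a8 at a mean of 10923 RPKM, S100a9 at 10386 RPKM and Ngp at 4520 RPKM. The sum over the 19 markers ran from 19442 to 40592 RPKM in Control mice and from 13745 to 47719 RPKM in HLU mice. S100a8 and S100a9 form the calprotectin of neutrophil cytosol, and Ngp is a granule protein with a cystatin-like fold. By the unadjusted rule 0 of the 19 were called in either direction by limma, beside 1.11% of all features higher and 4.76% lower. Of the 19, 18 were negative, as were 11523 of all 16973 features. The median log2 difference of the 19 was −0.17, beside −0.10 for all features. It was −0.087 and −0.074 under median-of-ratios and quantile scaling. It ran from −0.28 without HLU 2 to −0.035 without HLU 7 when 1 mouse was left out, so it lay on either side of the centre of all features. Among the markers not listed were Mpo, Elane and Prtn3, proteins of the earliest granules.

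Set against S100a8 and S100a9, stefin A was higher in every HLU mouse than in any Control mouse. The summed level per 1000 RPKM of S100a8 and S100a9 ran from 1.51 to 2.51 in Control mice, median 2.18, and from 2.89 to 4.81 in HLU mice, median 3.82. The groups did not overlap, and the log2 difference was 0.88 ± 0.11, or 1.19 under quantile normalization. S100a8 and S100a9 summed had medians of 23522 (Control) and 20258 RPKM (HLU), with a log2 difference of −0.20 ± 0.28. Over all 16973 features, every HLU mouse was above every Control mouse for 2 in RPKM (0.0118%, Gm15835 and a feature under the symbol Rnf135) and for 1 per RPKM of S100a8 and S100a9 (0.00589%, Gm23983), genes named after their values were seen. Since the stefin A copies were chosen on this contrast, the ratio is a description with no test, and nothing is read from these shares.

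Against Ngp in place of S100a8 and S100a9 the picture was less clear-cut. The summed level per 1000 RPKM of Ngp ran from 8.29 to 17.4 in Control mice, median 10.2, and from 11.5 to 35.8 in HLU mice, median 15.6. Only 2 HLU mice were above the highest Control mouse, and all 8 were above the Control median. The log2 difference was 0.65 ± 0.21.

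**Figure D3:**
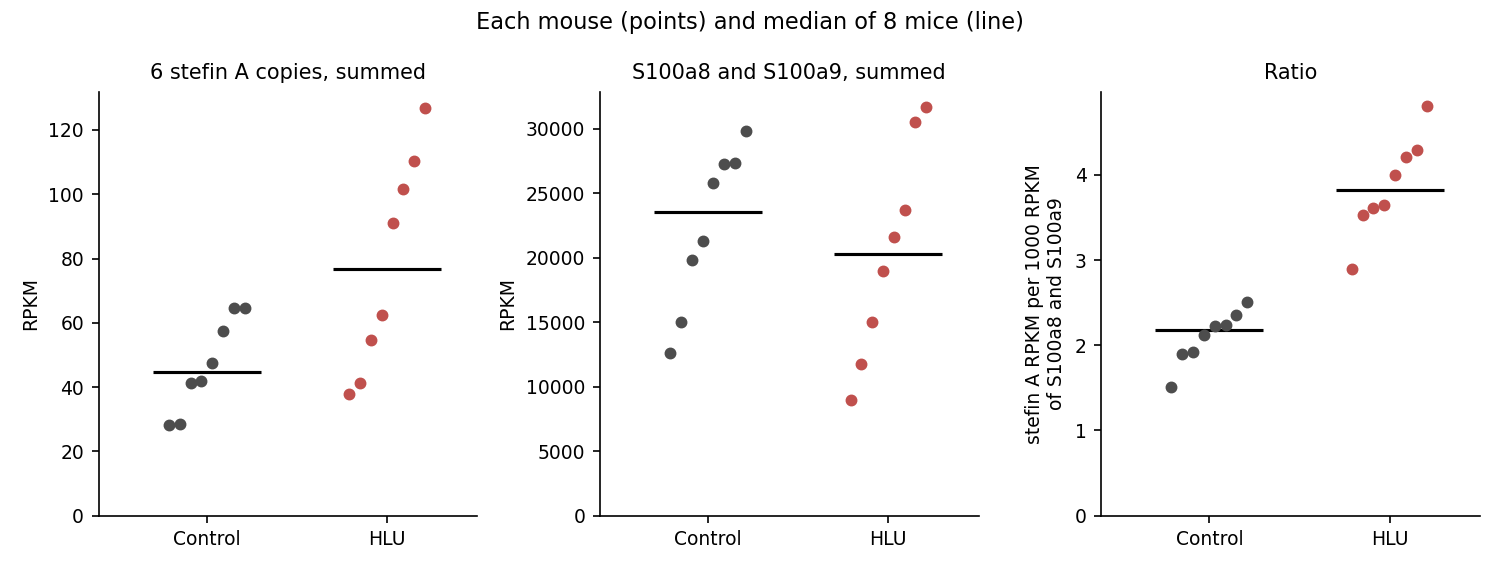
RPKM of the 6 stefin A copies summed, RPKM of S100a8 and S100a9 summed, and the first per 1000 RPKM of the second, in each of the 16 mice (points, sorted by value within a group), with group medians as lines. The sum overlaps between groups (28.3 to 64.7 against 37.9 to 126.9 RPKM), while per 1000 RPKM of S100a8 and S100a9 the 8 Control mice lie at 1.51 to 2.51 and the 8 HLU mice at 2.89 to 4.81.

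Within the groups, the mice with more neutrophil RNA also had more Stfa2l1. A score was taken for each mouse as the mean of the log2 levels of a marker list, and all values were centred on their group mean, which removes the difference between HLU and Control. Stfa2l1 followed the neutrophil score with a Pearson r of 0.81 over 16 mice (permutation p 0.00091, adjusted p 0.0218) and a Spearman rho of 0.80 (permutation p 0.00109, adjusted p 0.0262). The r was 0.78 in the Control and 0.83 in the HLU group. Without HLU 2 and HLU 7, the mice farthest from the median score, r was 0.66.

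This was the only 1 of 24 relations, 8 members by 3 scores, past an adjusted p of 0.05. The r stayed between 0.74 and 0.91 when any 1 mouse was left out, but the adjusted p did not always stay under 0.05. The adjusted p was 0.0941 without HLU 2 (r = 0.74), 0.0982 without HLU 7 (r = 0.75) and 0.0792 without the 2 libraries of lowest depth (r = 0.81). Across the leave-one-out fits and other settings the adjusted p ran from 0.00024 to 0.0982. The number of relations past the threshold ran from 0 to 8 over the fits that left out 1 mouse, being 0 without HLU 2 or HLU 7, 8 without HLU 4, 7 without Control 4, 5 without Control 7, 4 without HLU 5 and 2 without Control 5 or HLU 1.

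The other copies had positive but lower correlations with the neutrophil score, none past the threshold as scored here. They were 0.57 for BC100530, 0.55 for Gm5483, 0.53 for Stfa2, 0.41 for Stfa3 and 0.37 for Stfa1. Their Spearman rho ran from 0.30 to 0.61 and their permutation adjusted p for r from 0.0671 to 0.263. With S100a8 and S100a9 alone as the score, r was 0.82 for Gm5483 and 0.70 for Stfa1, both then past the threshold. BC100530 passed it in 6 of 21 other settings (such as 0.61 under median-of-ratios rescaling), and Stfa3 passed it without HLU 4 (0.51). Whether the copies differ in this relation was not tested. Cst3 had an r of −0.57 with the neutrophil score (permutation adjusted p 0.0829) and 0.60 with the osteocyte and osteoblast score (adjusted p 0.0845). Cstb had an r of −0.044 with the neutrophil score and 0.049 with the osteocyte and osteoblast score, and both turned sign under other settings. Cst3 with the neutrophil score passed the threshold in 5 of 21 other settings, such as −0.72 under median-of-ratios rescaling.

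The macrophage and bone cell scores gave no relation past the threshold in the main setting. With the macrophage score r was 0.59 for BC100530 (permutation adjusted p 0.0671), 0.54 for Stfa2l1 and 0.54 for Stfa2. With the osteocyte and osteoblast score all 6 copies had a negative r, from −0.34 for Stfa2 to −0.65 for Stfa2l1 (adjusted p 0.0671). Some relations passed it elsewhere. Both BC100530 with the macrophage score and Stfa2l1 with the osteocyte and osteoblast score passed the threshold in 7 of 21 other settings, among them median-of-ratios rescaling (0.63 and −0.71) and leaving out Control 4 (0.62 and −0.72), Control 7 (0.69 and −0.66), HLU 4 (0.65 and −0.65) or HLU 5 (0.65 and −0.64). With the macrophage score, Stfa2 also passed without HLU 1 (0.65) or HLU 4 (0.63), and Stfa2l1 passed without HLU 4 (0.73). With the osteocyte and osteoblast score, Gm5483 passed under median-of-ratios rescaling (−0.62) and without Control 4 (−0.65), and Cst3 passed without Control 4 (0.67). The scores are shares of the same libraries, so they are not independent of each other.

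**Figure D4:**
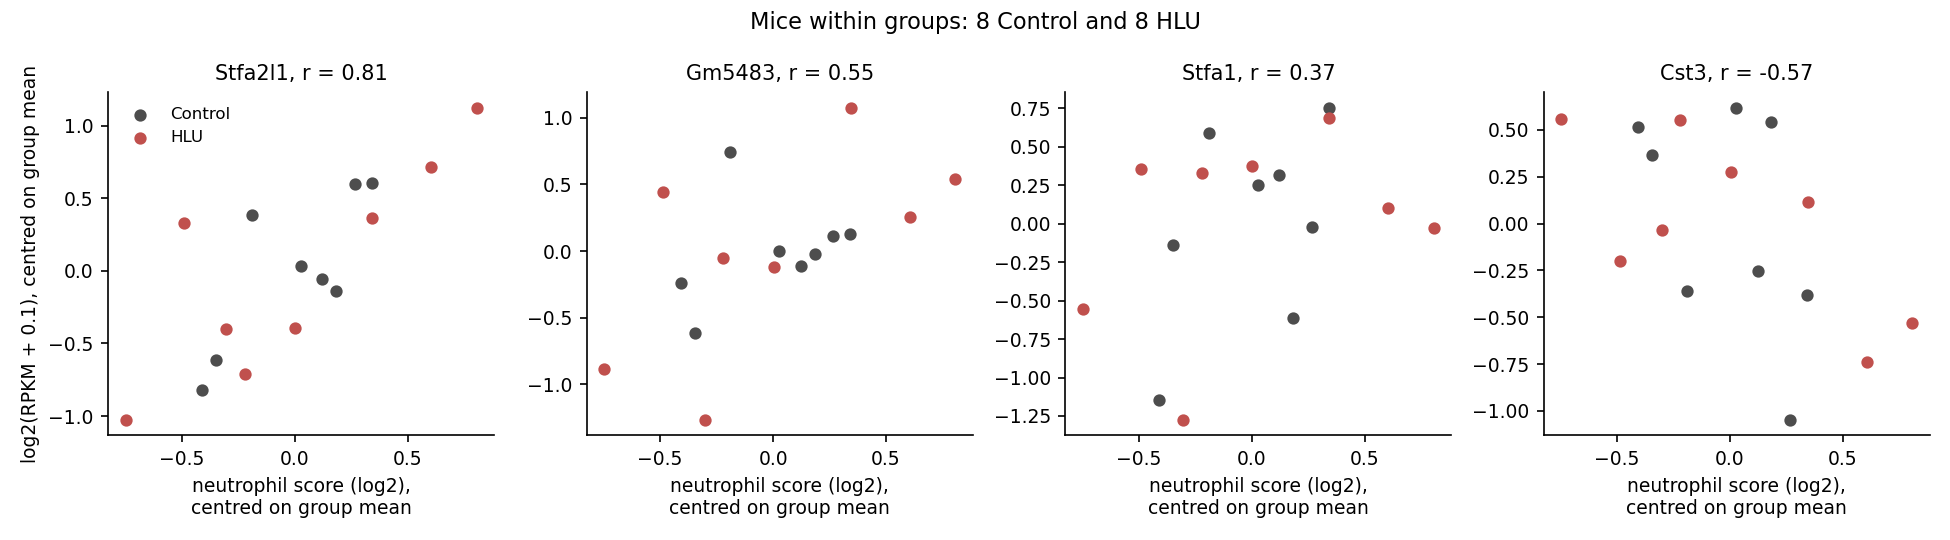
Level of Stfa2l1, Gm5483, Stfa1 and Cst3, log2(RPKM + 0.1) centred on the group mean, against the neutrophil score centred in the same way, for 8 Control and 8 HLU mice (points). Stfa2l1 follows the score most closely (r = 0.81), Gm5483 (0.55) and Stfa1 (0.37) less so, and Cst3 has a negative r of −0.57.

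The copies also moved with each other across mice once the groups were centred. Over the 15 pairs, r ran from 0.35 to 0.77 with a median of 0.57, and 10 pairs had a permutation adjusted p under 0.05. The highest was Stfa2l1 with BC100530 (r = 0.77, rho 0.76, adjusted p 0.0033), a pair whose coding identity is 79.4% and which shares no window of 50 bases. BC100530 rests on 2 to 19 reads per Control mouse, though this r was 0.83 in the Control and 0.82 in the HLU group. By rho the highest pair was Stfa2l1 with Gm5483 (0.83, r = 0.70). Without the 2 mice farthest from the median, r was 0.77 for Stfa2l1 with BC100530 and 0.62 for Stfa2l1 with Gm5483, and it fell from 0.65 to 0.41 for Stfa1 with Stfa2, which was among the 10 pairs. The near twins were not the closest in level: Stfa2 with Stfa2l1 had an r of 0.59 (adjusted p 0.0282) and Stfa1 with BC100530 had 0.41 (adjusted p 0.136). Within the Control and HLU groups, r was 0.61 and 0.61 for the first of these pairs and 0.64 and 0.096 for the second. Stfa2 rests on 2 to 20 reads per Control mouse. Near twins share windows of 50 bases, and how such reads were counted is not given in the sources used here. The r of near twins, 1 pair of which is among the 10, therefore cannot be told apart from the assignment of reads. Whether r differs between pairs was not tested.

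Single neutrophil genes differed widely in how closely they followed the copies. With the summed stefin A level, group-centred over 16 mice, the 19 neutrophil markers had a median r of 0.68, beside 0.045 for 15760 features with a unique symbol. Ranked among these features by r, S100a8 was at 87, S100a9 at 147, Ngp at 2160 and Ctsg, the median marker, at 2700. Many features outside the list thus followed the sum as closely as the median marker did. The highest markers were the formyl peptide receptor Fpr2 (0.95), S100a8 (0.92), the collagenase Mmp8 (0.91), S100a9 (0.90) and the receptor Fpr1 (0.87). The lowest were Camp, the cathelicidin precursor, at 0.053, Hp, haptoglobin, at −0.13 and Mmp9, a gelatinase also made by osteoclasts, at −0.29. Ngp (0.73), Ltf (0.67) and Lcn2 (0.46) lay between. For Stfa2l1 alone the closest marker was Mmp8 at 0.97. These values are descriptions with no p, and the mice in them share the scaling of their libraries.

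**Figure D5:**
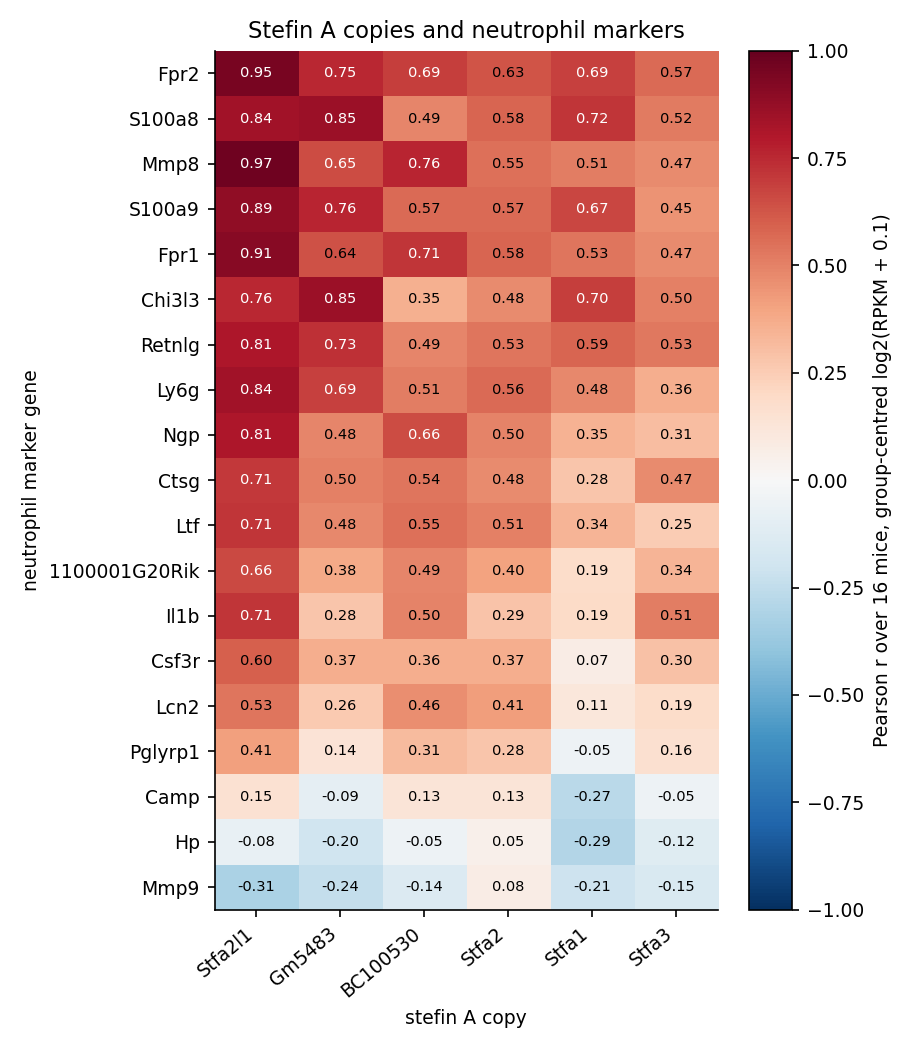
Pearson r over 16 mice between each stefin A copy and each of 19 neutrophil markers, on log2(RPKM + 0.1) centred on the group mean. The Stfa2l1 column runs from −0.31 (Mmp9) to 0.97 (Mmp8), and Fpr2, Mmp8 and the S100 genes have higher values than Camp, Hp and Mmp9 in every column.

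Among the 15760 features, 10 followed the summed stefin A level most closely. They were Dgcr8 (r = 0.96), Tmem209, Rab32 and Fpr2 (each 0.95), Golph3l and Bnip3l (each 0.95), and Lpcat2, Riok1, Gstcd and Cntd1 (each 0.94). Of these only Fpr2 is on the neutrophil list. Unlike the copies, the 10 genes had lower medians in HLU than in Control mice, such as 5.50 against 6.63 RPKM for Dgcr8, though for Lpcat2 they were nearly equal (10.22 and 10.23 RPKM). Among the features closest to Cstb were Btf3l4 (0.84), Syt6 (0.83), Agmo (0.83) and Gnptab, which makes the lysosomal sorting tag (0.83). Closest to Cst3 were Pebp1 and 1110051M20Rik (each 0.96), Gm20458, Map1lc3b and Lrrc61 (each 0.95). These were the highest of many correlations over 16 mice and are given with no p.

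Other cells of the sample were described in the same way. Of 12 macrophage markers 0 were called by limma in either direction at the unadjusted rule, beside 1.11% of all features higher and 4.76% lower. All 12 were negative, as were 11523 of all 16973 features. Their median log2 difference was −0.22, beside −0.10 for all features. That median ran from −0.33 without HLU 3 to −0.10 without HLU 7, and was −0.13 and −0.083 under median-of-ratios and quantile scaling. The most abundant were Vcam1 (79.2 RPKM), C1qb (66.1) and C1qa (41.6). The summed macrophage markers had medians of 349.8 (Control) and 303.8 RPKM (HLU). Among 10 osteocyte and osteoblast markers, Mepe, a matrix protein of osteocytes, was called higher (0.79 ± 0.32, limma adjusted p 0.744, beside 1.11% of all features), 0 were lower, and the list's median was 0.23, running from 0.14 without Control 2 to 0.37 without Control 4 and being 0.047 without the 2 libraries of lowest depth. Mepe lost its call without Control 1 (0.66), without Control 6 (0.64) and without the 2 libraries of lowest depth (0.68). The most abundant were Ibsp (555.7 RPKM), Col1a1 (294.7) and Mepe (182.8), all 3 above 0 in every library.

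Of the 7 osteoclast markers tested 0 were called, beside 1.11% of all features higher and 4.76% lower. Their median was −0.012, turning to 0.074 and 0.15 under median-of-ratios and quantile scaling. It ran from −0.087 without Control 2 to 0.092 without Control 8, and was −0.14 without the 2 libraries of lowest depth. Acp5, with a mean of 368.0 RPKM, and Mmp9, with 134.7 RPKM, followed Ctsk in abundance. Erythroid markers had 2 of 8 called lower (beside 4.76% of all features) and 0 higher, the globins Hbb-b1 (−0.77 ± 0.28) and Hbb-b2 (−0.70 ± 0.31), each at a limma adjusted p of 0.744, and a median of −0.64, running from −0.84 without Control 1 to −0.38 without HLU 4. Hbb-b2 lost its call with the neutrophil score as a covariate (−0.53), without a filter (−0.70), without the 2 libraries of lowest depth (−0.72), and without any single mouse of Control 3, 6, 7 or 8 or HLU 1, 4, 5 or 7 (−0.70 to −0.54). Hbb-b2 and Hbb-b1 were also the most abundant of these markers, with means of 1122 and 1003 RPKM. Of 5 B lymphocyte markers 0 were called, beside 1.11% of all features higher and 4.76% lower. Their median of −0.38 ran from −0.60 without Control 5 to −0.23 without HLU 7. Among the most abundant were Cd79b (24.2 RPKM) and Cd79a (16.5).

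The mast cell and basophil markers had 1 of 4 called lower (beside 4.76% of all features) and 0 higher, and a median of −0.50, running from −0.65 without Control 3 to −0.37 without HLU 7 and being −0.32 with the neutrophil score as a covariate. The gene called was Mcpt8, a basophil protease (−0.64 ± 0.28, limma adjusted p 0.744). It lost that call under median-of-ratios rescaling (−0.55), with the replicate number as a block (−0.64), without the 2 libraries of lowest depth (−0.58), and without any single mouse of Control 2, 4, 6 or 7 or HLU 1, 4, 5, 6 or 7 (−0.61 to −0.48). It kept the call at a smaller −0.41 with the neutrophil score as a covariate. Mcpt8, Cpa3 and Kit had means of 41.8, 14.0 and 6.79 RPKM. Markers of epidermis were scarce: Krt5 and Krt14, the keratins of its basal layer, were at 0 in all 16 mice. Only Krt10 of 7 keratinocyte markers passed the minimum, at a mean of 0.807 RPKM and with a log2 difference of 0.25. The 5 skeletal muscle markers were not listed under their symbols, and no other muscle genes were examined. The part of these cells in the stefin A difference was not tested.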

How the data were processed

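The deposited values are RPKM, 1 file per mouse, which the authors made from reads aligned with TopHat2 to mm9, and their notes also name DESeq2. Versions, counting tool, annotation, strand and read length are not given in the sources used here. DESeq2 was not run on the recovered reads, which entered only a limma-voom alternative. For the values reported, limma 3.58.1 (R 4.3.3, trend fit) was used on log2(RPKM + 0.1) for the 16973 features that averaged 0.5 RPKM or more in the 16 mice, with Benjamini-Hochberg adjustment over all of them. Library depth and reads were recovered from the spacing of RPKM values, and ranged from 7067512 to 21363584 reads. Intervals and limits cover counting error or the spread between mice only. Correlations used values centred on group means and 100000 permutations of mice within groups, adjusted over 24 relations or over 15 pairs, and exact tests used every division of the mice into 8 and 8. Python 3.11.15, numpy 2.4.6, pandas 2.3.3, scipy 1.17.1, Biopython 1.88 and matplotlib 3.10.9 were used, and the fit was checked on simulated data.

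The members and gene lists were chosen with earlier results of these data known. Named genes are the members, their family and locus, peptidases with a mean over 50 RPKM or an unadjusted p under 0.05, up to 3 of the most abundant of each marker list with any at that p, and up to 10 or 5 of the features most correlated with the members. Chil3, Adgre1 and Wfdc21 were read under their older symbols (Chi3l3, Emr1, 1100001G20Rik). Of the 36829 features 32751 have a unique symbol. Another 3887 all carry the symbol Rnf135, were kept in the fit and cannot be told apart by name. Alternatives were other pseudocounts, filters and scalings, a replicate block, a neutrophil covariate, array weights, limma-voom and leaving out mice.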

Additional observations from a re-analysis of the deposited data

Results flagged for a closer look

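Of 42 groups of 8 mice examined, 3 held a mouse far from the nearest of the others, where chance gives about 1 in 20 groups. Gm5483 in Control 4 was at 25.7 RPKM, with the next Control mouse at 16.7 RPKM and the lowest at 9.95 RPKM. The summed stefin A level per 1000 RPKM of Ngp was 17.4 in Control 4, with the next Control mouse at 12.0. The same ratio was 35.8 in HLU 4, with the next HLU mouse at 19.8. The cause was not tested.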

How the results depend on the processing

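The log2 differences of the 6 copies and of their sum kept their direction under all the alternatives run, the sum lying between 0.56 and 0.87. With a minimum of 2 RPKM, Stfa2 and BC100530 dropped out and have no value. Features called higher (188) numbered 391 without a filter, 106 with a minimum of 2 RPKM, 376 under median-of-ratios, 460 under quantile scaling, 108 without the 2 libraries of lowest depth, and 117 (without HLU 7) to 363 (without HLU 2) when 1 mouse was left out, with 310 without HLU 3. Those called lower (808) numbered 401 and 364 under these scalings and 471 to 1385 without 1 mouse, with 505 without Control 6, 512 without Control 7 and 488 without HLU 1. Fewer features were tested at the higher minimum and more without one. The adjusted count of 0 became 1 without a filter (Siah3), 2 with the neutrophil covariate (Mss51, Sdf2l1) and 0 to 1 without 1 mouse (Mss51, without HLU 2). These 3 genes were named after their values were seen. Stefin A per S100a8 and S100a9 was 1.19 under quantile scaling and 0.82 to 0.94 without 1 mouse.

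Cstb reversed to 0.017 under quantile scaling and was −0.17 to −0.053 without 1 mouse. Cst3 reversed to −0.059 with the covariate, −0.016 with array weights and −0.022 without the 2 libraries of lowest depth, and was −0.078 to 0.18 without 1 mouse. Relations past the threshold (1) numbered 3 with 1 RPKM added, 6 under median-of-ratios, 6 with S100a8 and S100a9 alone as the neutrophil score, 0 without the 2 libraries of lowest depth and 0 to 8 without 1 mouse. Stfa2l1 with the neutrophil score had an r of 0.81 without those 2 libraries, past the threshold no longer, and 0.74 to 0.91 without 1 mouse. Stfa1 with the macrophage score reversed to −0.0080 under median-of-ratios and −0.035 without the 2 libraries (−0.033 to 0.17 without 1 mouse). Cstb with the neutrophil score reversed to 0.21 with S100a8 and S100a9 alone (−0.17 to 0.22), with the macrophage score it ran from −0.23 to 0.31, and with the osteocyte and osteoblast score it reversed to −0.017 under median-of-ratios and −0.18 without the 2 libraries (−0.099 to 0.29). Where construction does not show it, the cause was not tested.

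With the replicate number as a block, 199 features were called higher, 840 lower and 0 at an adjusted p by limma, and the differences were 0.68 for summed stefin A, 0.88 for its ratio, −0.12 for Cstb and 0.072 for Cst3. Most mice of the same number were not alike: 3 of 8 pairs had a correlation over 0.1 (−0.17 to 0.51). The highest was that of Control 4 and HLU 4, both also flagged above for stefin A per Ngp. With so few such pairs, the numbers were not taken to pair mice. Depth limits Stfa2, Stfa3 and BC100530, which rest on 0 to 60 reads per mouse.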
